A study of Mus musculus with 6 samples.

Results

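The semaphorins, plexins and neuropilins of the mouse were followed across 6 libraries of polyadenylated RNA from primary melanocytes, the pigment cells of skin. The members are 31 genes named by family, 20 semaphorins, 9 plexins and 2 neuropilins, out of 36528 gene models in the files, and all 31 were found by gene ID. The libraries fall into 2 groups by genotype label, 3 BAP1 KO (knockout of BAP1, which removes ubiquitin from histones in the nucleus) and 3 WT (wild type), with 33987690 to 43773769 uniquely aligned reads each. The labels give no treatment, age, strain, Cre driver or culture passage, and do not say whether the replicates came from separate cultures or animals, so the spread between libraries may be technical. The members were chosen by the difference of 1 of them, Plxnc1, between these groups in the same counts, and then by family name. Differences between the groups are therefore given for the members as a description, with standard errors, and calls at the adjusted threshold are only counted.

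Semaphorins are guidance proteins that share a sema domain and are secreted or held at the cell surface. Plexins are their transmembrane receptors, and the intracellular part of a plexin acts on small GTPases that control the cytoskeleton and adhesion. Class 3 semaphorins are secreted, and most of them reach A plexins through the co-receptors neuropilin 1 or 2, whereas Sema3e binds plexin D1 directly. Classes 4, 5 and 6 span the membrane, and Sema7a is anchored by a lipid and binds plexin C1, a receptor that has been studied in melanocytes and melanoma.

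Levels are library-size-scaled read counts (CPM, with TMM factors) unless RPKM is named. The deposited size-factor-adjusted RPKM is per gene length and is used wherever the levels of different genes are compared. Differences are log2 values of the BAP1 KO-labelled libraries minus the WT-labelled ones, from edgeR's quasi-likelihood fit over all genes. Bap1 itself, the targeted gene, stood at 73.6, 77.3 and 72.5 CPM in the BAP1 KO-labelled libraries and at 55.7, 55.6 and 55.8 CPM in the WT-labelled ones. It was not lower under the knockout label, so every direction below rests on the labels. Counts are per gene model and not per exon, so the knockout could not be checked from them. The libraries also differed in cell type markers. The summed 16 melanocyte markers took 69265 to 70068 CPM in the BAP1 KO-labelled libraries against 8258 to 8416 CPM, and the summed 26 keratinocyte markers from 794 to 834 CPM and from 16789 to 17060 CPM. The summed 16 fibroblast markers ran from 189 to 204 CPM and from 1197 to 1232 CPM, the 8 Schwann cell markers from 1647 to 1717 CPM and from 549 to 647 CPM, and the 8 immune markers from 231 to 239 CPM and from 68.4 to 75.4 CPM. The 8 endothelial markers ran from 48.8 to 53.9 CPM and from 14.7 to 15.6 CPM, and the 7 neuron markers from 2.42 to 2.86 CPM and from 22.7 to 24.7 CPM. Cldn5, Rbfox3 and Elavl4 had no read in the BAP1 KO-labelled libraries. In the WT-labelled ones they had only 4, 4 and 10 reads in total, and they were not tested. Markers of melanocytes were thus read in all 6 libraries, and in the WT-labelled ones the keratinocyte sum exceeded the melanocyte sum. The part of these cell types in the differences below was not tested, and fewer cells of a type cannot be told apart from less RNA per cell.

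Of the 31 members, 30 passed the low-count filter, and at an edgeR adjusted p under 0.05 the BAP1 KO-labelled libraries had a higher level for 10 of these and a lower level for 17. Over all 17121 tested genes 81.5% passed in either direction, 39.4% higher and 42.1% lower. The 2 groups of libraries were fully apart for 27 of the 30 members, as for 82.7% of all tested genes. Differences over 2-fold were called for 19 of the 30, against 36.6% of all genes, and over 8-fold for 9, against 10.4%. The members' median log2 difference was -0.66, and that of all tested genes was -0.03. Because the contrast chose the family, nothing is read from these shares. Of the 11 receptors 5 were higher and 4 lower, and of the 19 tested semaphorins 5 were higher and 13 lower; the difference between these counts was not tested.

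**Figure D1:**
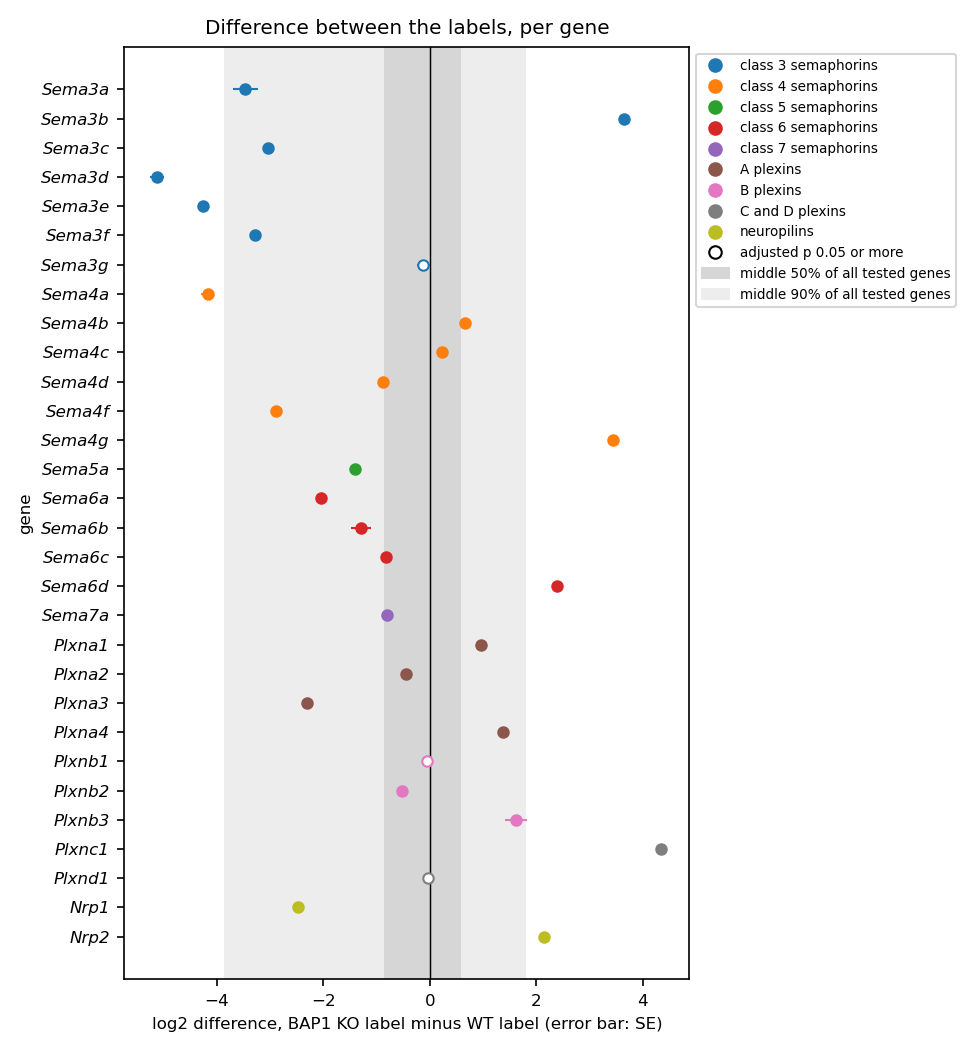
Log2 difference between the BAP1 KO-labelled libraries and the WT-labelled ones (x axis) for the 30 tested genes (y axis), with standard errors and colours by class; open circles mark adjusted p of 0.05 or more. The grey bands hold the middle 50% and 90% of all tested genes; Plxnc1 lies furthest right at 4.34 and Sema3d furthest left at -5.12.

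Plxnc1, the plexin for Sema7a, gave the family its place in the comparison. Its promoter window is printed first because it had the largest positive difference of the family, followed by those of Sema6d and Sema3e, which lay on opposite sides and hold letters of the E-box. Each is the 250 bases before a RefSeq transcript start on GRCm38, 5′ to 3′ on the gene's strand, with E-box letters (CACGTG, or CATGTG and its reverse complement CACATG, both strands searched) in capitals.
Plxnc1 (minus strand, chr10:94944846-94945095): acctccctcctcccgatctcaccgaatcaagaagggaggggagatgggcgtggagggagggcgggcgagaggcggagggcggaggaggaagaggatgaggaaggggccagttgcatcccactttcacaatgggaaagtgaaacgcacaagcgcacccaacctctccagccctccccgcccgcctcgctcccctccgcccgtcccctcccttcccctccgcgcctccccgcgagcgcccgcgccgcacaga
Sema6d (plus strand, chr2:124089719-124089968): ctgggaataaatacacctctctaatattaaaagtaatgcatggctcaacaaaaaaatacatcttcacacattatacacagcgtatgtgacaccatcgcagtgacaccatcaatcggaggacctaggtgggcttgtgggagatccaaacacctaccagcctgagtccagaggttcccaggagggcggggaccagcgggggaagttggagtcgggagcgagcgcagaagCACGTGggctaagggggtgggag
Sema3e (plus strand, chr5:14025026-14025275): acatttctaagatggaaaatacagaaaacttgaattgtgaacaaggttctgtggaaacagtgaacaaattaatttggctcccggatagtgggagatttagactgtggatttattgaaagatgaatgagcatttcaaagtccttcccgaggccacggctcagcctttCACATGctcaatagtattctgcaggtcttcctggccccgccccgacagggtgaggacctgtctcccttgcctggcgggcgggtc

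MITF, the transcription factor of the melanocyte lineage, binds E-boxes of these letters. The Plxnc1 window held neither motif. The RefSeq span of this minus-strand gene begins at 94945015, inside the window, so part of the window lies within the gene. Likewise the Sema6d span begins at 124089943, inside its printed window. In the printed window of Sema6d, CACGTG began at position -23, counted from 0 at the start site; the other window of Sema6d in the table held neither motif. In Sema3e, CACATG began at position -84, and CACGTG at position 23, beyond the stretch printed. Windows for 26 of the 31 members were in the table, 37 windows of 300 bases (250 before and 50 after the start). Of these 37, 5 held either motif, which was 13.5%, and 20.4% of all 32851 windows did. CACGTG alone was in 8.11% of the members' windows and 7.15% of all, and CATGTG in 8.11% and 14.2%. The letters describe these windows and are not evidence of binding or of its absence.

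Among the receptors, Plxnc1 (gene ID 54712; chromosome 10, 94790866 to 94945015) was measured at 337, 339 and 334 CPM in the BAP1 KO-labelled libraries and at 17.3, 16.7 and 15.8 CPM in the WT-labelled ones. All BAP1 KO-labelled libraries lay far above all the WT-labelled ones, a 20.3-fold difference (log2 4.34, SE 0.047). Per gene length it moved from rank 9 of 11 receptors under the WT label, at 1.85 RPKM, to rank 4 under the BAP1 KO label, at 38.4 ± 0.380 RPKM (SD, n = 3). It made up 15.0% ± 0.566 of the summed plexin RPKM in the BAP1 KO-labelled libraries and 0.895% ± 0.0600 in the WT-labelled ones. Of the melanocyte markers, all 16 of 16 were called higher as well, against 39.4% of all tested genes. Their log2 differences had a median of 2.82 and reached 3.775, below that of Plxnc1. Whether Plxnc1 follows these markers was not tested. Within each group the libraries spanned a narrow range for Plxnc1, so the difference was not set by a single library.

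The next receptors are the neuropilins, the co-receptors of class 3 semaphorins that also bind VEGF proteins. Nrp2 (chromosome 1, 62703317 to 62818692) stood at 1241, 1262 and 1209 CPM in the BAP1 KO-labelled libraries and at 283, 278 and 281 CPM in the WT-labelled ones, a 4.41-fold higher level (log2 2.14, SE 0.033). Nrp1 (chromosome 8, 128358591 to 128505476) stood at 39.1, 37.6 and 38.1 CPM in the BAP1 KO-labelled libraries and at 212, 223 and 201 CPM in the WT-labelled ones, with a log2 difference of -2.47 (SE 0.049). The groups did not overlap for either gene, as for 82.7% of all tested genes. The pair thus lay in opposite directions, and its make-up changed from near equality to mostly Nrp2. Nrp2 held 51.5% ± 1.42 of the summed neuropilin RPKM in the WT-labelled libraries and 96.3% ± 0.116 under the BAP1 KO label (SD, n = 3 each). The sum itself was 2.41 times as high, at 149 ± 3.20 against 61.9 ± 0.589 RPKM. Under the BAP1 KO label keratinocyte markers (all 25 tested) and fibroblast markers (12 of 14 tested) were lower too, and all 16 melanocyte markers higher. The summed Schwann cell, immune and endothelial markers were higher there as well. Any gene that differs between the groups goes with such markers, and their part in the levels of Nrp1 and Nrp2 was not tested. Counts are per gene, so secreted and membrane forms of a neuropilin were not separated.

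The A plexins, the signalling partners of neuropilins, went both ways. Plxna1, the most abundant of them, stood at 995, 1024 and 922 CPM against 497, 499 and 521 CPM (log2 0.96, SE 0.044). An unstranded preparation cannot separate Plxna1 from Gm26811, which overlaps 10.7% of its exon bases on the other strand. Plxna4, a receptor for Sema3a and class 6 semaphorins, was higher at 28.5, 29.0 and 29.4 CPM against 11.4, 11.0 and 11.0 CPM (log2 1.38, SE 0.054). Plxna3, the partner of Nrp2 for Sema3f, was lower at 14.8, 14.0 and 14.8 CPM against 71.9, 70.1 and 73.0 CPM (log2 -2.30, SE 0.048). The libraries of the groups stood apart for all 4 A plexins, as for 82.7% of all tested genes. Plxna2 differed least, at 20.8, 22.4 and 21.1 CPM against 27.2, 30.2 and 30.6 CPM (log2 -0.45, SE 0.062). Per gene length Plxna3 and Plxna2 could not be ordered under the BAP1 KO label, at 1.85 ± 0.0581 and 1.82 ± 0.0702 RPKM, while under the WT label Plxna3 was at 8.92 ± 0.321 and Plxna2 at 2.44 ± 0.157 RPKM.

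The B and D plexins held the members with the smallest differences. Plxnb2, a receptor for class 4 semaphorins, was the most abundant receptor per gene length under the WT label at 113 RPKM and the third under the BAP1 KO label at 80.4 RPKM. It stood at 584, 605 and 544 CPM in the BAP1 KO-labelled libraries and at 827, 804 and 849 CPM in the WT-labelled ones (log2 -0.52, SE 0.043). Plxnb1, a receptor for Sema4d, stood at 179, 189 and 167 CPM against 187, 181 and 190.2 CPM, and the groups overlapped. Its difference was -0.06 with a 95% interval of -0.17 to 0.05. Plxnd1, the receptor for Sema3e, also overlapped, at 87.1, 93.1 and 83.8 CPM against 89.0, 87.3 and 95.2 CPM, with a difference of -0.04 and an interval of -0.16 to 0.08. These intervals hold no 2-fold difference in either direction. Plxnb3 was scarce, with 241 reads in total under the BAP1 KO label and 77 under the WT label, at most 2.30 CPM in any library (log2 1.61, SE 0.21).

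**Figure D2:**
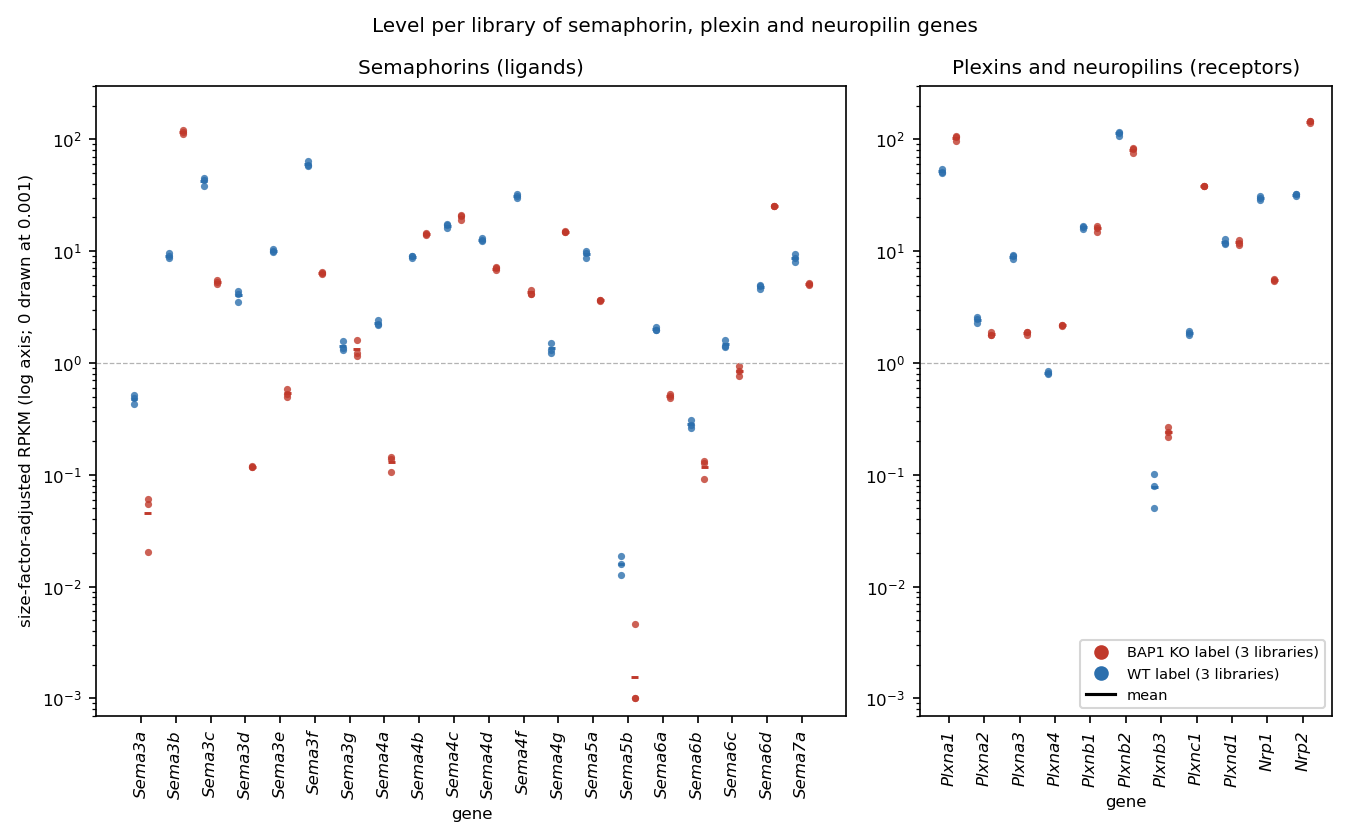
Size-factor-adjusted RPKM on a log axis (y) for each of the 31 genes (x), ligands left and receptors right, with a point per library and a bar at the mean of 3; red is the BAP1 KO label and blue the WT label. Sema3b and Nrp2 are the highest ligand and receptor under the BAP1 KO label, Sema3f and Plxnb2 under the WT label, and the dashed line is at 1 RPKM.

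Among ligands, the secreted class 3 held 6 of the 8 past 8-fold, with 5 of its 7 genes lower, Sema3b higher and Sema3g not past the threshold. Of all tested genes, 10.4% were past 8-fold and 42.1% were lower. Sema3b (chromosome 9, 107597674 to 107609241) stood at 599, 620.0 and 571 CPM in the BAP1 KO-labelled libraries and at 44.7, 47.7 and 50.1 CPM in the WT-labelled ones, a 12.6-fold difference (log2 3.65, SE 0.053). Sema3f (chromosome 9, 107681499 to 107710475), which acts through Nrp2, stood at 27.6, 29.0 and 28.6 CPM against 269.5, 266 and 287 CPM (log2 -3.27, SE 0.048). Sema3c, which can use both neuropilins and plexin D1, stood at 28.8, 26.9 and 27.9 CPM against 233, 248 and 204 CPM (log2 -3.04, SE 0.073). No library of a group reached the values of the other group for these 3 genes, as for 82.7% of all tested genes. The leading class 3 ligand was therefore Sema3b under the BAP1 KO label and Sema3f under the WT label.

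The other class 3 genes of chromosome 5, where Sema3c also lies, were lower in the BAP1 KO-labelled libraries. Sema3d, a ligand of neuropilin 1, stood at 0.836, 0.821 and 0.837 CPM against 29.7, 32.1 and 25.1 CPM, the largest negative difference of the family (log2 -5.12, SE 0.13). Sema3e, the plexin D1 ligand, stood at 4.21, 3.85 and 3.65 CPM against 73.5, 79.1 and 72.6 CPM (log2 -4.27, SE 0.068). Sema3a, the classic repellent of axons, stood at 0.620, 0.235 and 0.697 CPM against 6.07, 5.82 and 4.92 CPM (log2 -3.46, SE 0.23), which rests on 58 reads over the BAP1 KO-labelled libraries. Groups did not overlap for these genes either, as for 82.7% of all tested genes. The low levels under the BAP1 KO label were all under 5 CPM. Keratinocyte markers had a median of -4.09 and fibroblast markers of -2.96 in the same libraries, and their part in these values was not tested. Sema3g, an Nrp2 ligand, stood at 6.04, 7.79 and 5.72 CPM against 6.82, 6.68 and 7.83 CPM. The groups overlapped, and the difference was -0.12 with a 95% interval of -0.39 to 0.15.

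Summed over class 3, the level per gene length was close in the groups, at 130.3 ± 5.06 RPKM under the BAP1 KO label and 128 ± 0.526 RPKM under the WT label (SD, n = 3 each). Its make-up was not. Sema3b held 89.5% ± 0.292 of the sum in the BAP1 KO-labelled libraries and 7.11% ± 0.450 in the WT-labelled ones. Sema3f held 4.90% ± 0.203 and 47.2% ± 2.80, and Sema3c 4.07% ± 0.248 and 33.2% ± 2.76. Sema3e held 0.412% ± 0.0270 under the BAP1 KO label and 7.89% ± 0.220 in the WT-labelled libraries.

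**Figure D3:**
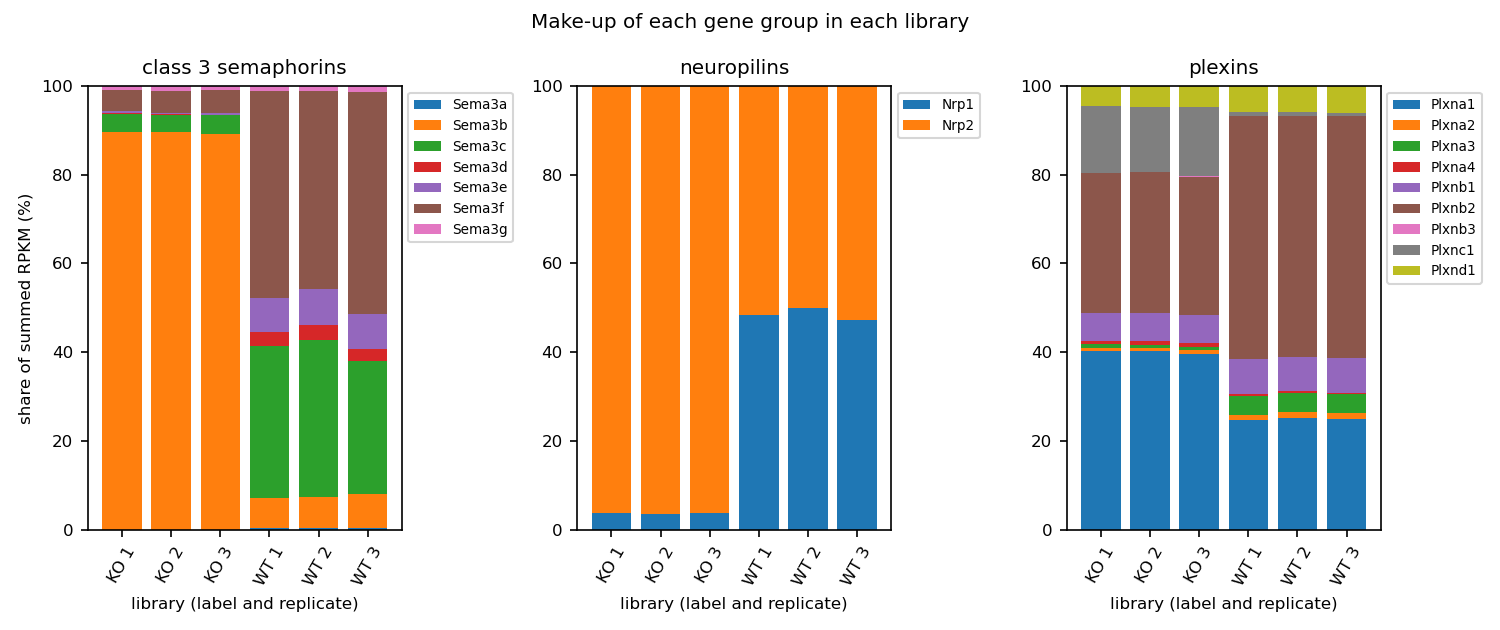
Share of the summed RPKM (y axis, percent) held by each gene in class 3 semaphorins, neuropilins and plexins, with a bar per library (x axis). Sema3b and Nrp2 fill most of their bars in the 3 BAP1 KO-labelled libraries, and Plxnc1 holds 15.0% of the plexin sum there against 0.895% under the WT label.

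The class 4 semaphorins, transmembrane ligands of B plexins, had 3 genes higher and 3 lower. The shares over all tested genes were 39.4% higher and 42.1% lower. Sema4g stood at 82.2, 84.9 and 81.8 CPM in the BAP1 KO-labelled libraries and at 7.39, 7.05 and 8.44 CPM in the WT-labelled ones, a 10.8-fold difference (log2 3.44, SE 0.065). Sema4f stood at 22.2, 23.8 and 22.2 CPM against 169, 164 and 174 CPM (log2 -2.89, SE 0.048). Sema4a stood at 0.836, 0.610 and 0.809 CPM against 13.1, 13.1 and 14.2 CPM (log2 -4.17, SE 0.12). Sema4f and Sema4a were low in the libraries with the low keratinocyte sum, and the part of keratinocytes in these values was not tested. The other members of the class changed by under 2-fold. Sema4b was higher at 63.8, 65.6 and 62.5 CPM against 41.0, 39.9 and 40.6 CPM (log2 0.66, SE 0.042). Sema4d, the ligand of plexin B1 also known from immune cells, was lower at 55.5, 55.2 and 52.3 CPM against 99.1, 100.3 and 102 CPM (log2 -0.89, SE 0.042). Sema4c, a plexin B2 ligand, was the closest, at 109, 113 and 102 CPM against 95.9, 89.6 and 92.0 CPM (log2 0.23, SE 0.048), with 7.27% of its exon bases under D430040D24Rik on the other strand. Even so its groups did not overlap, as for 82.7% of all tested genes.

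Of classes 5, 6 and 7, Sema6d alone was higher in the BAP1 KO-labelled libraries among the 6 genes tested. Over all tested genes, 39.4% were higher and 42.1% lower. Sema6d, a ligand of plexin A1, stood at 223, 224 and 224 CPM against 44.2, 41.9 and 42.9 CPM (log2 2.38, SE 0.040), and was the second ligand by RPKM under the BAP1 KO label and the eleventh under the WT label. Sema5a, a plexin B3 ligand with thrombospondin repeats, stood at 42.8, 42.7 and 42.3 CPM against 115, 123 and 102 CPM (log2 -1.41, SE 0.064). Sema6a, a plexin A2 and A4 ligand, stood at 4.04, 3.89 and 4.24 CPM against 17.3, 16.6 and 16.0 CPM (log2 -2.04, SE 0.074). Each of these had groups apart, as had 82.7% of all tested genes. Sema6c stood at 4.93, 4.50 and 5.47 CPM against 8.37, 8.48 and 9.36 CPM (log2 -0.82, SE 0.094). Sema7a, the plexin C1 ligand, stood at 18.4, 18.3 and 17.7 CPM in the BAP1 KO-labelled libraries and at 31.4, 29.9 and 34.0 CPM in the WT-labelled ones, a 1.75-fold lower level (log2 -0.81, SE 0.060). Sema6b stayed at or under 1.55 CPM in every library (log2 -1.29, SE 0.19). Sema5b, with a total of 1 read under the BAP1 KO label and 11 under the WT label, did not pass the count filter and was not tested.

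Levels per gene length were counted against 1 RPKM, and a gene under that level is not thereby absent. Sema6c, under it in the BAP1 KO-labelled libraries, had 571 reads there. At a mean of 1 RPKM or more there were 12 of 20 ligands and 10 of 11 receptors under the BAP1 KO label, and 17 ligands and 9 receptors under the WT label. The ligands summed to 227 RPKM under the BAP1 KO label and 228 RPKM under the WT label, and the receptors to 404 and 269 RPKM. The order of ligands was Sema3b (117 RPKM), Sema6d (25.4), Sema4c (20.2), Sema4g (15.0) and Sema4b (14.3) under the BAP1 KO label, each separated from the next over its 3 libraries. It was Sema3f (60.3 RPKM), Sema3c (42.5), Sema4f (31.1), Sema4c (16.9) and Sema4d (12.7) under the WT label, likewise separated. Further down, neighbours overlapped under the WT label from Sema3e (10.1 RPKM) through Sema5a, Sema3b and Sema4b to Sema7a (8.72 RPKM), and from Sema6c (1.47 RPKM) through Sema3g to Sema4g (1.35 RPKM). Among the BAP1 KO-labelled libraries they overlapped for Sema3c with Sema7a, for Sema3e with Sema6a, and from Sema4a (0.130 RPKM) through Sema3d to Sema6b (0.117 RPKM). Sema4c was the only ligand among the leading 5 of both groups. Receptors led with Nrp2 (144 RPKM), Plxna1 (102) and Plxnb2 (80.4) under the BAP1 KO label and with Plxnb2 (113), Plxna1 (51.7) and Nrp2 (31.9) under the WT label.

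Ligands were then set beside the receptors they are known to bind, in 28 pairs. Both partners differed in the same direction in 10 pairs and in opposite directions in 10, and in 8 pairs a partner was not called or not tested. Pairs share genes, so they are not independent of each other. The ligand was lower and the receptor higher in 8 pairs, and both were lower in 7, both higher in 3, and the ligand alone higher in 2. Such counts also depend on the shares of all tested genes, 39.4% higher and 42.1% lower, and nothing is read from them. In the pair of Sema7a and Plxnc1 the ligand stood at -0.81 and the receptor at 4.34. Per gene length, Sema7a stood at 5.08 RPKM beside 38.4 RPKM of Plxnc1 under the BAP1 KO label and at 8.72 RPKM beside 1.85 RPKM under the WT label.

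The pairs through neuropilin 2 show both arrangements. Sema3b and Nrp2 were both higher, at 3.65 and 2.14, and stood at 117 and 144 RPKM under the BAP1 KO label. Sema3f, on the same co-receptor, was lower at -3.27, as was its plexin Plxna3 at -2.30. Of the neuropilin 1 ligands, Sema3a, Sema3c and Sema3d were lower together with Nrp1. Sema3e and Sema4a were lower while the levels of Plxnd1 overlapped between the groups. Sema6d was higher with Plxna1, and Sema4g was higher while Plxnb2 was lower. Both partners reached 1 RPKM in 14 pairs under the BAP1 KO label and in 18 pairs under the WT label.

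**Figure D4:**
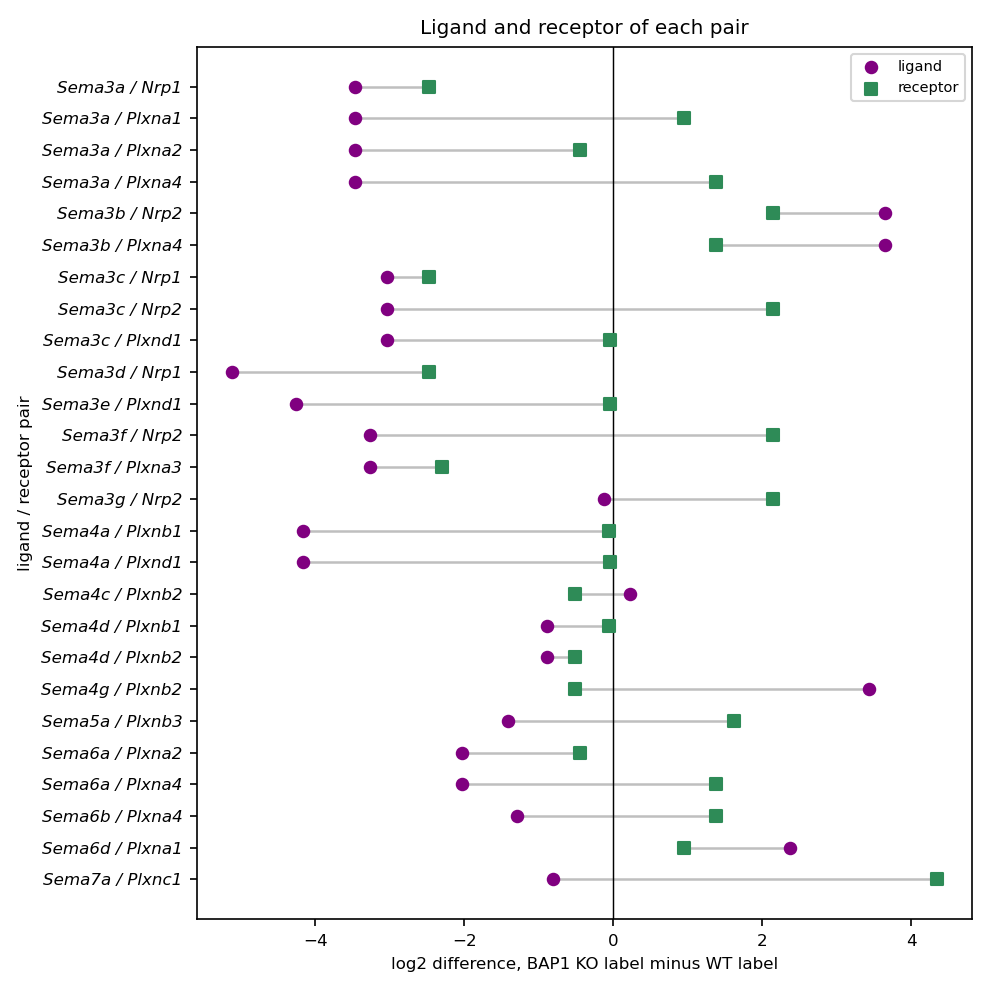
Log2 difference between labels (x axis) of the ligand (circle) and the receptor (square) of each known pair with both genes tested (y axis), joined by a line. Sema3b with Nrp2 and Sema6d with Plxna1 lie right of 0, Sema3d with Nrp1 and Sema3f with Plxna3 left of it, and Sema7a with Plxnc1 spans from -0.81 to 4.34.

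Members that are neighbours on a chromosome went together in some places and apart in others. Sema3b and Sema3f lie 72.3 kb apart on chromosome 9 with 3 protein-coding genes (Gnai2, Slc38a3 and Gnat1) between them, and differed by 3.65 and -3.27. On chromosome 5, Sema3d and Sema3a lie 536 kb apart with no protein-coding gene between them, and Sema3e follows 422 kb after Sema3a; all 3 were lower, as was Sema3c further along the same chromosome. Sema3g lies on chromosome 14 (31217873 to 31230352), 21.0 kb from the targeted gene Bap1, with Phf7 between them. Its level overlapped between the groups, as given above. Plxna3 and Plxnb3, 556 kb apart on the X chromosome with 23 protein-coding genes between them, differed in opposite directions.

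Among co-receptors and ligands that share these receptors, 17 genes were tested, of which 6 rose and 10 fell (median -0.49). Of all tested genes, 39.4% were higher and 42.1% lower. Nrcam, a cell adhesion molecule that joins neuropilin complexes, rose from 64.2 ± 1.03 to 531 ± 6.0 CPM (log2 3.05, edgeR adjusted p = 2.36e-13). Mst1r, a receptor tyrosine kinase that B plexins can engage, fell from 19.9 ± 1.44 to 1.02 ± 0.110 CPM (log2 -4.28, edgeR adjusted p = 3.21e-11). The VEGF receptors Flt1 and Flt4 were lower at -3.94 and -3.52, while the third, Kdr, named after its value was seen, was higher at 0.41. Pgf, a ligand of Flt1 and of neuropilins, was lower at -2.24. Ptk7, a pseudokinase linked to plexin signalling, fell from 418 ± 7.42 to 58.6 ± 2.40 CPM (log2 -2.84). Chosen after their values were seen, the adhesion molecule L1cam and the kinase Met, partners of neuropilin 1 and of B plexins, were higher at 1.86 and 1.35. Itgb1, the integrin chain that also binds Sema7a, was lower at -0.49, and the integrin chain Itga1 was lower at -1.75. Both were likewise chosen after their values were seen.

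The plexin effectors, GTPases and cytoskeletal proteins that act below the receptors, were 17 higher and 16 lower of 36, with 3 not called and a median of -0.0025. Of all tested genes, 39.4% were higher and 42.1% lower. The named 6 with the largest changes were all lower. The kinase Pak1 fell from 74.2 ± 0.795 to 6.02 ± 0.495 CPM (log2 -3.63, edgeR adjusted p = 1.83e-12). Rnd3 and Rnd1, whose proteins bind plexins, were lower at -2.98 and -2.93. The collapsin response mediators Dpysl3 and Crmp1 were lower at -2.83 and -2.56, and the actin-oxidising enzyme Mical2 at -2.79. Their close relatives, chosen after their values were seen, went the other way: Dpysl2 was higher at 2.10, Mical3 at 2.04 and Rnd2 at 1.94. Rnd2 shares 11.4% of its exon bases with Vat1 on the other strand.

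The other guidance families, ephrins with their receptors, slits with robos and netrins with theirs, had 25 of 30 tested genes lower and 4 higher, with a median of -1.73. Of all tested genes, 42.1% were lower and 39.4% higher. Another 8 of these 38 genes did not pass the count filter. Largest were Robo3 (-4.23), Ephb3 (-4.09), Epha2 (-3.95), Efnb2 (-3.88), Efna3 (-3.64, with 14.1% of its exons under Gm15998) and Epha1 (-3.40). Epha2 fell from 499 ± 10.9 to 32.3 ± 1.84 CPM (edgeR adjusted p = 2.89e-13). The semaphorin ligands had a median of -1.29 and their receptors of -0.04. Whether these medians differ was not tested.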

How the data were processed

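Per the labels' protocols, column-purified RNA went into an unstranded TruSeq v2 library, sequenced as single-end reads of 50 bases. Per the submitters' processing notes, GSNAP and GRCm38 were used; their versions, the counting tool and the gene annotation: not given in the sources used here. The authors deposited, per the file headers, counts of uniquely aligned reads per gene model and a size-factor-adjusted RPKM. Gene IDs were matched to the RefSeq table of GRCm38.p6 (85.0% of 36528; 1.09% of reads had no match), which also gave coordinates and promoter sequences; exon overlaps came from GENCODE M21.

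Counts were filtered with filterByExpr (minimum count 10, total 15), scaled by TMM and tested with edgeR 4.0.16 (R 4.3.3; glmQLFit, glmQLFTest) over 17121 genes with Benjamini-Hochberg adjustment at 0.05. Standard errors are the absolute log2 difference over the square root of F; intervals use the fit's degrees of freedom. Replicates are numbered in submission order. No file repeats another: counts of replicate pairs gave a chi-square over its degrees of freedom of 2.01 to 17.4. Alternatives were relative log expression (RLE) factors in edgeR, library totals, no filter, 5 CPM in 3 libraries, DESeq2 1.42.0 and leaving out each library. The fit was tested on simulated data. Members, pairs and lists were chosen with earlier results of these data known. Named were all members, with values per library at 5 CPM or more in either group, and up to 6 called genes per other list by absolute log2 difference with at least 2 CPM in the higher group. Protein sequences were not used here.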

Additional observations from a re-analysis of the deposited data

How the results depend on the processing

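Over 11 alternatives the count of members called higher ran from 9 to 10 and lower from 17 to 18, and 22 and 26 members reached 1 RPKM under the BAP1 KO and WT labels in all 4 alternatives tried for them. Of 328 alternative values of single members, 322 kept their direction and their side of the threshold. The exceptions were the 3 members not called. Plxnb1 passed the threshold with library totals (-0.12) and with the 5 CPM filter (-0.14), and leaving out single libraries gave -0.091 to 0.00060, above 0 without BAP1 KO replicate 3. Plxnd1 ran from -0.071 to 0.030 with single libraries left out, above 0 without BAP1 KO replicate 3 or WT replicate 3. Sema3g passed without BAP1 KO replicate 2 (-0.27), within a range of -0.27 to -0.0083. The causes were not tested. The largest departure of any member was 0.396 on the log2 scale, and Plxnc1 ran from 4.27 to 4.40. Counts of the other lists moved by at most 1.5 times, the most for co-receptors called higher (4 with the 5 CPM filter against 6), and no scaling moved the median of all genes by more than 0.0614. Depth limits Sema5b, Sema6b, Plxnb3 and, under the BAP1 KO label, Sema3a, Sema3d and Sema4a. No paired analysis was possible because the replicates carry no number in the labels.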
